A study of Mus musculus with 6 samples.

Results

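Expression of 10 genes of long-chain fatty acid metabolism was followed in megakaryocyte–erythroid progenitors (MEPs), the bone marrow cells that give rise to red blood cells and platelets, from adult *Nanog*-tg mice. The genes were chosen by name, with earlier results of these data known. They were the 5 long-chain acyl-CoA synthetases *Acsl1*, *Acsl3*, *Acsl4*, *Acsl5* and *Acsl6*, and the enzymes *Fasn*, *Scd1*, *Scd2*, *Acaca* and *Cpt1a*. All 10 were among the 12101 genes with a value, and all 10 passed the filter on low values that left 12088 genes for testing. The mice carry a *Nanog* cDNA under a doxycycline (dox)-responsive promoter and the rtTA activator at the *Rosa26* locus, so that dox switches on *Nanog* in the whole animal. 3 dox-treated replicates came from mice given dox in the drinking water for 5 days, and 3 untreated replicates from mice of the same genotype without dox. Both groups are labelled as adults of strain CD-1. The labels do not say whether replicates are separate animals, so that p-values measure only the spread between these samples. No group received dox without the transgene, and effects of dox itself and of *Nanog* cannot be told apart.

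A fatty acid has to be joined to coenzyme A before a cell can use it, and this step is catalysed by the long-chain acyl-CoA synthetases, which differ in where they sit in the cell and in the fatty acids they prefer. New fatty acids are built from acetyl-CoA: ACACA makes malonyl-CoA, FASN assembles saturated chains from it, and SCD1 and SCD2 place a double bond in them. CPT1A acts in the opposite direction, moving long-chain acyl groups onto carnitine so that they enter mitochondria for β-oxidation, and malonyl-CoA inhibits it. Maturing red cells replace their membrane lipids after they have lost the means to build them, and ACSL6 is the synthetase best known from late erythroid cells and brain.

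The libraries held between 11264803 and 16153600 reads on listed genes, and 3 reads corresponded to between 0.193 and 0.273 CPM (counts per 1000000 reads). *Nanog* itself was at 1256, 1460 and 1024 CPM in dox-treated replicates 1, 2 and 3 and at no more than 0.998 CPM in the untreated libraries, which follows the labels. Dox-treated replicate 3 stood apart from the other dox-treated libraries on the second principal component, at -51.69 against 15.44 and 11.95. On the first component it was at -14.76 against -57.53 and -56.35, nearer to the untreated libraries (35.11 to 54.23). The counts past the threshold among the 10 genes and among all other fatty acid genes together are also given without dox-treated replicate 3. Erythroid markers summed to between 7388 and 12290 CPM with dox and between 10328 and 10854 CPM without, led by *Car2*, *Car1* and *Aqp1*, and 2 of 22 tested passed, both lower (list median -0.32). Dox-treated replicates 1 and 2 (7579 and 7388 CPM) lay below all untreated libraries and dox-treated replicate 3 above them. Granulocyte markers, led by *Mpo*, *Elane* and *Prtn3*, summed to between 525 and 777 CPM with dox and between 2540 and 5800 CPM without, and 11 of 16 tested passed as lower. Monocyte and macrophage markers, led by *Ly6c2*, *Lyz2* and *F13a1*, summed to between 60.4 and 93.5 CPM against 189 to 405 CPM, with 6 of 12 lower. The sums were higher in all dox-treated libraries than in all untreated ones for megakaryocyte markers (*Itga2b*, *F2r*, *Gp5*; 288 to 664 against 177 to 237 CPM, with 5 of 15 tested higher and 1 lower), mast cell and basophil markers (*Il1rl1*, *Slc18a2*, *Cpa3*; 223 to 252 against 110 to 136 CPM, with 3 of 6 higher and 2 of the others with a lower mean, the lowest at a log2 fold change of -3.42) and stem and multipotent progenitor markers (*Mllt3*, *Cd34*, *Meis1*; 330 to 478 against 152 to 246 CPM, with 0 of 10 passing in limma and 6 at an unadjusted p under 0.05). B cell markers (*Cd79b*, *Blnk*, *Igll1*) summed to between 12.1 and 32.0 CPM with dox and between 14.3 and 28.2 CPM without, with 1 of 8 lower. T and NK cell markers (*Nkg7*, *Lck*, *Il7r*) summed to between 12.1 and 24.0 CPM with dox and between 32.2 and 56.4 CPM without. Of these 3, 1 was lower (log2 fold change -2.12), and the other 2 had a higher mean with dox (list median 0.39). In bulk samples fewer cells of a type and less RNA per cell cannot be told apart, and the part of these markers in the results on fatty acid genes was not tested.

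With dox, 5 of the 10 genes fell: both stearoyl-CoA desaturases *Scd1* and *Scd2*, fatty acid synthase *Fasn*, and the synthetases *Acsl3* and *Acsl6* (limma, Benjamini–Hochberg adjusted p under 0.05). None rose past the threshold. Over all genes tested 7.77% passed, with 4.59% higher and 3.18% lower. Since the 10 genes were chosen with earlier results of these data known, shares over all genes are no test of this set. The median log2 fold change of the 10 genes was -0.60, against -0.03 over all genes tested. At an unadjusted p under 0.05 there were 7 of the 10, against 29.2% of all genes. The 3 dox-treated and 3 untreated values did not overlap for the same 7 genes, 5 lower and 2 higher (*Acsl4* and *Cpt1a*), where 35.9% of all genes did not overlap, 18.2% lower and 17.7% higher. Without dox-treated replicate 3 the limma fit called 5 of the 10 genes lower and 1 higher, *Acsl4*, while over all genes it called 1687 lower and 1801 higher. Leaving out any other library left between 0 and 2 lower: 1 without dox-treated replicate 1 or 2, 2 without untreated replicate 1 or 2, and 0 without untreated replicate 3.

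**Figure D1:**
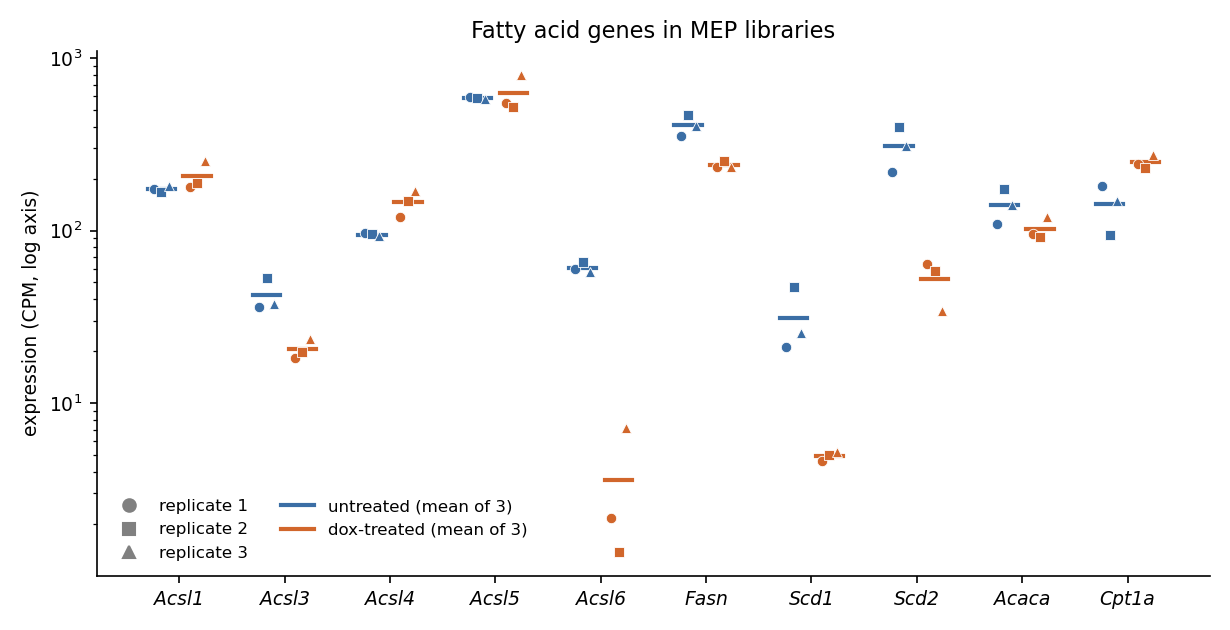
Expression of the 10 genes in CPM on a log axis, with 1 point per library (shape gives the replicate), blue for untreated and orange for dox-treated MEPs, and a bar at the mean of the 3 libraries. *Acsl6*, *Scd1* and *Scd2* show the widest gaps between the groups, and *Acsl5* is the highest in both.

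The sequence upstream of the transcription start is shown for the genes that fell and have an entry in the RefSeq promoter table (build GRCm38.p6). Of the 10 genes, 8 had an entry, and *Scd1* and *Scd2* did not. Each line gives the 250 bases before the start, 5′ to 3′ on the strand of the gene, with CCAAT on either strand (CCAAT or ATTGG) in capitals. *Fasn* is at chr11:120824548-120824797 on the minus strand, *Acsl3* at chr1:78657575-78657824 on the plus strand, and *Acsl6* at chr11:54303574-54303823 on the plus strand, which is the first listed of its 3 starts.
*Fasn*: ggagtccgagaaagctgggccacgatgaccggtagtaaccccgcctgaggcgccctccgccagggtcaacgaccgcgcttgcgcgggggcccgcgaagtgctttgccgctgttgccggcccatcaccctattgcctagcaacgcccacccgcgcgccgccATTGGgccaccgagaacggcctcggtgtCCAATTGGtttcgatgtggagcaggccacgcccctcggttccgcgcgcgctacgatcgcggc
*Acsl3*: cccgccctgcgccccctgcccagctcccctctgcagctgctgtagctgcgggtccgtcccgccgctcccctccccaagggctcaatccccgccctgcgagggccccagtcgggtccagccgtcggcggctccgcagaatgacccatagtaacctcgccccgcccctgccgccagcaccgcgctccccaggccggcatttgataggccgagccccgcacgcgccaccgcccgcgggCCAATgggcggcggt
*Acsl6*: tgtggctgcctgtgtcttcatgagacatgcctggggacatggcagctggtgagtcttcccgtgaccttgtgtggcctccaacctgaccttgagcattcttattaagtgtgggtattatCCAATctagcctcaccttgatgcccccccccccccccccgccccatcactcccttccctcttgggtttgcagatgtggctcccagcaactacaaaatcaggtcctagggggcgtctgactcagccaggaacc

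CCAAT, the box bound by NF-Y, began 90, 62 and 59 bases before the start of *Fasn*, the latter pair overlapping each other on opposite strands. A single CCAAT began 15 bases before the start of *Acsl3* and 132 bases before that of *Acsl6*. The same window held at least 1 CCAAT in 33.8% of the 32851 promoters of the table, and also in *Cpt1a*, *Acsl5* and the second listed window of *Acsl1*, which did not fall. The E-box CACGTG (6.02% of all promoters), the sterol regulatory element core TCACNCCAC (1.05%) and the GATA site AGATAA (9.99%), searched on both strands, were in none of the 3 windows shown, and the second window of *Acsl1* held 1 sterol regulatory element core. The other listed windows of *Acsl6* held 0 and 1 CCAAT. These matches describe the letters in the window only.

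Among the long-chain acyl-CoA synthetases, *Acsl6* had the largest difference. *Acsl6* (NCBIM37 chromosome 11, 54117300 to 54178258, plus strand) was at 2.17, 1.38 and 7.22 CPM in dox-treated replicates 1, 2 and 3 and at 59.6, 65.7 and 57.8 CPM in untreated replicates 1, 2 and 3. Every dox-treated library was therefore well below every untreated one, and dox-treated replicate 3 was the highest of its group. The log2 fold change was -4.45 (SE 0.592, 95% interval -5.90 to -3.0, limma adjusted p = 0.0166), which is a 21.9-fold lower level with dox. Without dox-treated replicate 3 it was -5.14. The untreated libraries varied by 6.74% of their mean and the dox-treated ones by 88.3%.

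*Acsl3*, a synthetase of the endoplasmic reticulum and lipid droplets (chromosome 1, 78654400 to 78703562, plus strand), was at 18.4, 19.7 and 23.6 CPM with dox and at 36.2, 53.2 and 37.6 CPM without. The groups did not overlap, with untreated replicate 2 the highest. Its log2 fold change was -1.03 (SE 0.192, adjusted p = 0.0356), a 2.04-fold lower level with dox. *Acsl3* overlaps *Utp14b* on the same strand, and 5.44% of the 36-base windows of its transcripts also occur in transcripts of other genes, so that a small share of its reads is uncertain.

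*Acsl4*, the synthetase that prefers arachidonic acid and other polyunsaturated fatty acids (chromosome X, 138752536 to 138825078, minus strand), was at 120, 149 and 170 CPM with dox and at 96.1, 94.99 and 92.8 CPM without. All dox-treated values were above all untreated ones, yet the difference missed the threshold (log2 fold change 0.61, SE 0.149, 95% interval 0.25 to 0.98, adjusted p = 0.0619). It passed in 6 of 15 alternative fits, one of them without dox-treated replicate 3 (adjusted p = 0.0401). *Acsl3* and *Acsl4* are close relatives. Per kilobase of transcript *Acsl4* was between 3.95 and 4.56 times *Acsl3* with dox and between 1.08 and 1.61 times without. Since *Acsl4* was higher and *Acsl3* lower in all dox-treated libraries, this ratio could not overlap between the groups. Its two-sided exact permutation test (on the log2 ratio, p = 0.1, adjusted 0.15) therefore adds no evidence. Such a permutation test of 3 libraries against 3 cannot give less, and the adjustment was Benjamini–Hochberg over 6 ratios compared.

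*Acsl1*, the main synthetase of fat, heart and liver (chromosome 8, 47556395 to 47621405, plus strand), was at 179, 188 and 254 CPM with dox and at 175, 167 and 182 CPM without. The groups overlapped, and the log2 fold change was 0.23 (95% interval -0.16 to 0.62, adjusted p = 0.373). *Acsl5*, a synthetase found on mitochondria and endoplasmic reticulum (chromosome 19, 55327859 to 55371117, plus strand), was at 551, 519 and 800 CPM with dox and at 592, 583 and 578 CPM without. The SD of its untreated values was 1.17% of their mean, whereas dox-treated replicate 3 was above and the other dox-treated replicates below all of them. The log2 fold change of 0.07 (95% interval -0.38 to 0.51, adjusted p = 0.833) had the opposite sign without that library (-0.13). *Acsl5* overlaps *Zdhhc6* on the other strand, and the use of strand in counting is not given in the sources used here.

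Per kilobase of the longest transcript, *Acsl5* made up most of the ACSL level in every library, between 66.6% and 70.6% with dox and between 67.5% and 68.9% without. *Acsl1* came next, with 18.7% ± 0.713 (SD, n = 3) with dox and 16.5% ± 0.814 without. *Acsl4* held 9.79% ± 1.36 with dox and 6.59% ± 0.0815 without, and *Acsl3* 2.28% ± 0.216 and 4.87% ± 1.05. The order of *Acsl1* and *Acsl4* depended on the length used: with the bases covered by any exon, a setting chosen after the values were seen, *Acsl1* held 9.51% with dox and 8.43% without, and *Acsl4* 11.8% and 7.98%, so that *Acsl4* was above *Acsl1* in every dox-treated library. The share of *Acsl6* was between 3.69% and 4.12% in untreated MEPs and between 0.0957% and 0.345% in dox-treated MEPs. The summed level of the 5 genes, 286 ± 64.2 CPM per kb with dox and 272 ± 2.31 without, overlapped between the groups, with dox-treated replicate 3 highest at 360 CPM per kb.

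**Figure D2:**
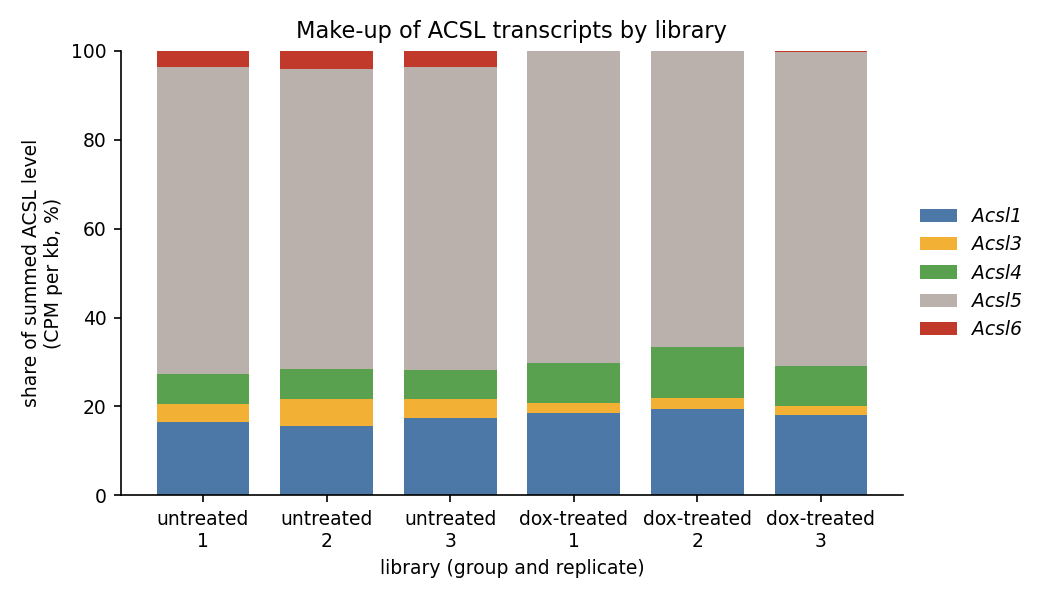
Share of each ACSL gene in the summed ACSL level (CPM per kb of the longest transcript, in percent) in each of the 6 libraries, 1 bar per library. *Acsl5* fills between 66.6% and 70.6% of every bar, and the *Acsl6* part is visible in the untreated bars (3.69% to 4.12%) and nearly absent with dox.

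In the synthesis branch the fall was largest at the desaturases. *Scd2*, the more abundant of the pair (chromosome 19, 44368166 to 44381354, plus strand), was at 63.6, 58.6 and 34.0 CPM with dox and at 218, 398 and 307 CPM without. *Scd1* (chromosome 19, 44468941 to 44482199, minus strand) was at 4.60, 5.02 and 5.23 CPM with dox and at 21.0, 46.8 and 25.6 CPM without. For both genes every dox-treated library was below every untreated one. The log2 fold changes were alike, -2.57 for *Scd2* (SE 0.323, adjusted p = 0.0150) and -2.57 for *Scd1* (SE 0.301, adjusted p = 0.0127), each a 5.9-fold lower level with dox. The ratio of *Scd2* to *Scd1* per kilobase was between 5.77 and 12.3 with dox and between 7.54 and 10.6 without, and overlapped between the groups (exact permutation test, p = 1). Reads of this pair could partly be mixed with those of *Scd3*, since 7.12% of the 36-base windows of *Scd1* and 5.46% of those of *Scd2* recur in other genes, mostly in *Scd3*.

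*Fasn* (chromosome 11, 120667254 to 120685492, minus strand) was at 233, 254 and 233 CPM with dox and at 353, 465 and 403 CPM without. The groups did not overlap, and the log2 fold change was -0.75 (SE 0.133, adjusted p = 0.0321), a 1.69-fold lower level with dox. *Acaca*, which encodes the enzyme of the committed step before FASN (chromosome 11, 83943174 to 84215153, plus strand), was at 95.6, 92.0 and 119 CPM with dox and at 109, 174 and 140 CPM without. Dox-treated replicate 3 lay above untreated replicate 1, and the difference did not pass (log2 fold change -0.45, 95% interval -0.95 to 0.05, adjusted p = 0.208).

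*Cpt1a* (chromosome 19, 3323301 to 3385732, plus strand) was at 243, 229 and 274 CPM with dox and at 181, 94.7 and 149 CPM without. All dox-treated libraries were above all untreated ones, but the untreated values were spread widely and the difference missed the threshold (log2 fold change 0.86, SE 0.250, 95% interval 0.25 to 1.47, adjusted p = 0.0886). Per kilobase *Cpt1a* was between 2.01 and 2.62 times *Fasn* with dox and between 0.454 and 1.139 times without. The oxidation gene was thus above the synthesis gene in every dox-treated library and in only 1 untreated library. This ratio could not overlap between the groups, since neither gene overlapped and they went in opposite directions. Its exact permutation test (on the log2 ratio, p = 0.1, adjusted 0.15) therefore adds no evidence.

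**Figure D3:**
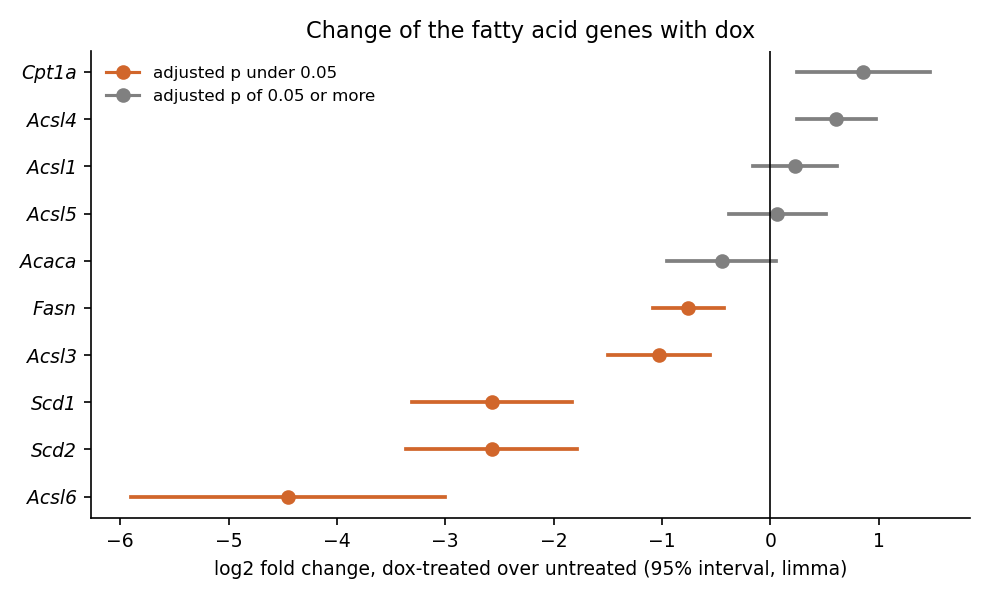
Log2 fold change of each gene, dox-treated over untreated, with its 95% interval from limma, in orange where the adjusted p was under 0.05 and in grey otherwise. *Acsl6* lies lowest at -4.45, the intervals of *Scd1* (-3.30 to -1.83) and *Scd2* (-3.36 to -1.78) lie close together, and *Cpt1a* (0.86) and *Acsl4* (0.61) have intervals above 0 although they missed the threshold.

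Within the untreated group, replicate 2 was often at the edge. Untreated replicate 2 had the highest value of its group for *Scd1*, *Scd2*, *Fasn*, *Acaca*, *Acsl3* and *Acsl6* and the lowest for *Cpt1a* and *Acsl1*. The untreated values of *Acsl6* and *Acsl1* varied little (SD of 6.74% and 4.10% of the mean). How often this library was at the edge over all genes was not counted. On the first principal component it lay furthest out of its group (54.23 against 39.3 and 35.11). *Scd1* ranged most widely, from 21.0 to 46.8 CPM (44.2% of the mean as SD), and *Acsl5* least. Untreated replicate 2 was also the untreated library with the lowest granulocyte sum (2540 CPM, against 5800 and 4125 CPM in untreated replicates 1 and 3) and the lowest monocyte and macrophage sum (189 CPM). It was lowest as well for megakaryocyte (177 CPM), mast cell and basophil (110 CPM), stem and multipotent progenitor (152 CPM) and T and NK cell (32.2 CPM) markers. For B cell markers it was highest (28.2 CPM), and for erythroid markers it lay between the others. The part of these markers in the spread was not tested.

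In untreated MEPs the order of levels per kilobase, from the highest, was *Acsl5* (186 ± 2.17 CPM per kb, SD, n = 3), *Scd2* (56.4 ± 16.5), *Acsl1* (44.9 ± 1.84), *Fasn* (42.5 ± 5.83), *Cpt1a* (32.9 ± 10.1), *Acsl4* (17.9 ± 0.318), *Acaca* (14.8 ± 3.41), *Acsl3* (13.3 ± 2.96), *Acsl6* (10.5 ± 0.708) and *Scd1* (6.44 ± 2.84). The ranges of the neighbours from *Scd2* to *Cpt1a* overlapped one with the next, as did those from *Acsl4* to *Acsl3*, so that their order within these runs is not fixed. With dox the order was *Acsl5* (198 ± 48.8 CPM per kb), *Cpt1a* (57.8 ± 5.31), *Acsl1* (53.2 ± 10.5), *Acsl4* (27.7 ± 4.70), *Fasn* (25.0 ± 1.26), *Acaca* (10.7 ± 1.55), *Scd2* (9.55 ± 2.90), *Acsl3* (6.44 ± 0.860), *Scd1* (1.02 ± 0.0662) and *Acsl6* (0.618 ± 0.546). Here *Cpt1a* and *Acsl1*, *Acsl4* and *Fasn*, *Acaca* to *Acsl3*, and *Scd1* and *Acsl6* overlapped as neighbours. *Scd2* moved from rank 2 to rank 7 and *Cpt1a* from rank 5 to rank 2. With the bases covered by any exon as the length, a setting chosen after the values were seen, *Acsl1* was at 18.5 in place of 44.9 CPM per kb in untreated MEPs and took rank 5 in both groups, and *Acsl6* took rank 10 in untreated MEPs.

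Beyond these genes, 169 further genes of fatty acid metabolism in 8 lists by role were followed, of which 131 were tested. Of these 10 rose and 4 fell, which is 7.63% and 3.05%, beside 4.59% and 3.18% of all genes tested, with a median log2 fold change of 0.01. The share that fell was thus near that of all genes. In single lists the counts are small, and they stand beside 7.77% of all genes that passed and 29.2% that had an unadjusted p under 0.05. Without dox-treated replicate 3, 25 rose and 14 fell, in a fit that called 1801 of all genes higher and 1687 lower. Leaving out any other library left between 2 and 6 higher and 1 or 2 lower.

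Among the regulators *Pparg* rose. *Pparg*, the nuclear receptor that drives fat cell formation and binds fatty acids, was at 4.60, 4.73 and 4.396 CPM with dox and at 0.0389, 0.0369 and 0.136 CPM without, where the untreated libraries held 0, 0 and 1 read. Against a floor of 3 reads per library it was at least 18.9-fold higher with dox (adjusted p = 0.00611). It was the only one of 22 regulators to pass. Of 10 adipocyte markers only *Lpl* was listed, at no more than 3.54 CPM in any library, and the others, *Adipoq* and *Plin1* among them, were not in the table.

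Among thioesterases, binding and uptake proteins 4 of 17 passed, each of them higher with dox (list median 0.25). The cytosolic thioesterase *Acot1*, which splits acyl-CoA again, was at 48.3, 44.3 and 71.5 CPM with dox and at 3.46, 1.07 and 2.77 CPM without (log2 fold change 4.62, SE 0.467, adjusted p = 0.0101). Its neighbour and close copy *Acot2*, a mitochondrial form, was at 31.4 ± 0.792 CPM with dox and 13.98 ± 3.84 CPM without (adjusted p = 0.0286). *Acot4*, the peroxisomal form, was at 2.003 ± 1.09 CPM with dox, at least 8.26-fold above the floor of 3 reads per library in untreated MEPs, where the libraries held 1, 0 and 0 reads (adjusted p = 0.0115). Since 53% of the 36-base windows of *Acot1*, 34.1% of those of *Acot2* and 15.2% of those of *Acot4* recur in other genes, the split of reads between these copies is uncertain. *Cd36*, a membrane receptor that takes up long-chain fatty acids, was at 21.7, 22.7 and 34.4 CPM with dox and at 7.35, 5.51 and 6.78 CPM without (log2 fold change 1.98, adjusted p = 0.0115).

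Of 23 genes of the carnitine shuttle and mitochondrial β-oxidation 2 passed, and both rose: *Hadh*, a dehydrogenase of the spiral (101 ± 8.13 CPM with dox, 46.9 ± 7.42 without, adjusted p = 0.0169), and *Slc25a20*, the carnitine–acylcarnitine carrier that acts after CPT1A (37.1 ± 3.23 and 23.5 ± 2.78 CPM, adjusted p = 0.0436). In the peroxisomal list of 16, *Phyh*, which oxidises branched chains, fell (12.1 ± 0.139 and 16.4 ± 0.380 CPM, adjusted p = 0.0447). The list medians were 0.13 and 0.22.

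The other genes of synthesis did not pass the threshold, which does not show that they differed from *Fasn*. Per kilobase *Fasn* was between 1.94 and 2.74 times *Acaca* with dox and between 2.65 and 3.21 times without. This ratio overlapped between the groups (exact permutation test on the log2 ratio, p = 0.2, adjusted 0.24). Of 9 tested genes that supply acetyl-CoA and malonyl-CoA or complete synthesis, 0 passed in limma and 3 had an unadjusted p under 0.05. The smallest p-values were those of *Slc25a1*, the mitochondrial citrate carrier (80.8 ± 9.25 CPM with dox, 126 ± 20.9 without, adjusted p = 0.0711), and *Ndufab1*, the mitochondrial acyl carrier protein (61.6 ± 2.94 and 85.7 ± 12.6 CPM, adjusted p = 0.0875). Of 14 genes of elongation and desaturation only *Fads3*, a desaturase acting on sphingoid bases, passed, and it rose (98.9 ± 16.2 and 52.3 ± 3.51 CPM, adjusted p = 0.0267). Among the 9 tested relatives of the ACSL genes, the other acyl-CoA synthetases and fatty acid transport proteins, 0 passed in limma and 5 had an unadjusted p under 0.05. The first by p were *Slc27a4* (21.8 ± 0.823 and 17.8 ± 0.453 CPM, adjusted p = 0.105) and *Acsf2* (26.5 ± 14.3 and 8.50 ± 2.33 CPM, adjusted p = 0.115).

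Of 21 acyltransferases that place acyl-CoA in glycerolipids 3 fell and 1 rose. *Lpcat1*, which reacylates lysophosphatidylcholine with saturated chains, was at 36.8, 35.3 and 38.8 CPM with dox and at 96.3, 134.3 and 96.4 CPM without (log2 fold change -1.54, SE 0.161, adjusted p = 0.0107), and again untreated replicate 2 was the highest. *Mboat1* fell from 2.07 ± 0.951 to 0.672 ± 0.0543 CPM (adjusted p = 0.0434) and *Agpat1*, an enzyme of phosphatidic acid synthesis, from 120 ± 10.4 to 74.8 ± 10.7 CPM (adjusted p = 0.0444). *Agpat3*, of the same enzyme family, rose from 63.5 ± 3.31 to 93.8 ± 6.42 CPM (adjusted p = 0.0367).

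**Figure D4:**
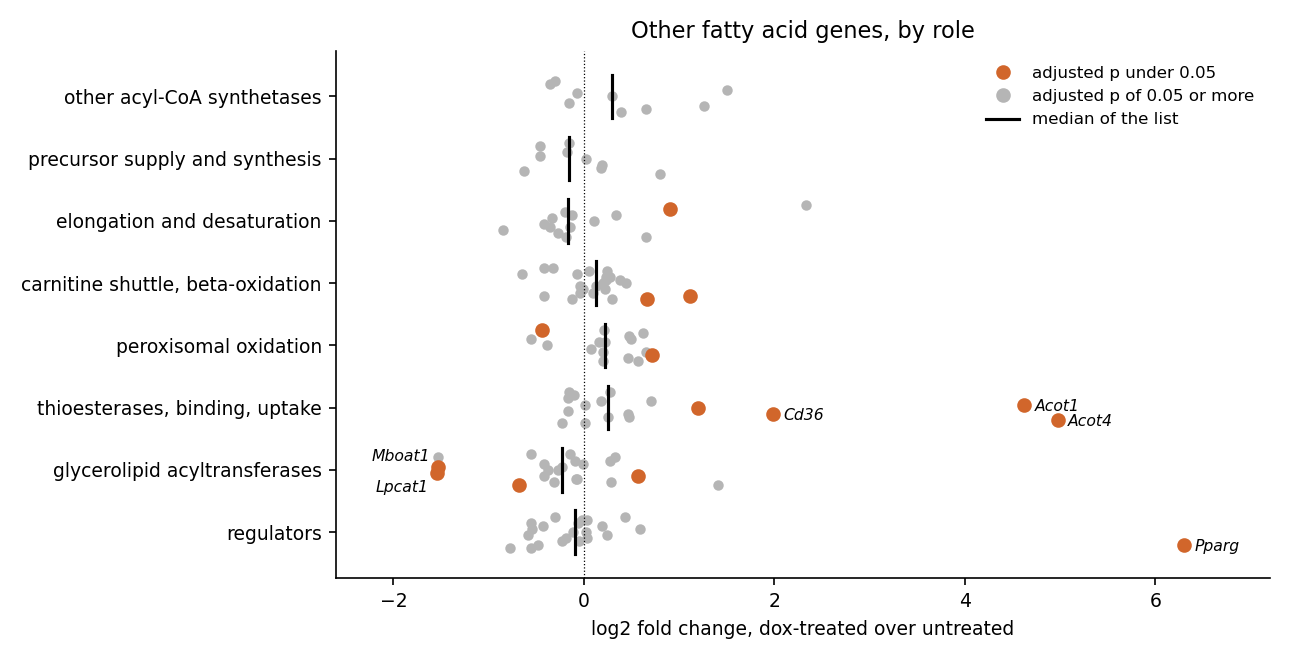
Log2 fold change, dox-treated over untreated, of the 131 other fatty acid genes tested, 1 point per gene in 8 lists by role, with orange points for an adjusted p under 0.05 and a black line at the median of each list. Among the orange points, *Pparg* (6.30), *Acot4* (4.97), *Acot1* (4.62) and *Cd36* (1.98) lie furthest right, and *Lpcat1* and *Mboat1* furthest left. *Pparg* and *Acot4* had 0 or 1 read in untreated libraries, so that their values depend on the reads added (4.67 and 3.39 with 2 reads added).

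The calls of the 5 genes that fell had different reserves. *Scd2* passed in 12 of 15 alternative fits, *Scd1* in 11, *Acsl6* in 10, *Acsl3* in 9 and *Fasn* in 8, all with the same direction in every fit. The log2 fold changes stayed between -2.80 and -2.26 for *Scd2*, between -2.81 and -2.23 for *Scd1*, between -5.14 and -3.94 for *Acsl6*, between -1.13 and -0.85 for *Acsl3* and between -0.85 and -0.59 for *Fasn*. *Acsl3* and *Fasn* lost the call when any library other than dox-treated replicate 3 was left out, with adjusted p of up to 0.133 and 0.115, and *Fasn* also with quantile normalization (0.0527). *Acsl6* lost it without dox-treated replicate 1 or any untreated replicate (up to 0.0697), *Scd1* without dox-treated replicate 1 or 2 or untreated replicate 3 (up to 0.0534), and *Scd2* without dox-treated replicate 2 or untreated replicate 3 (up to 0.0646).

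**Figure D5:**
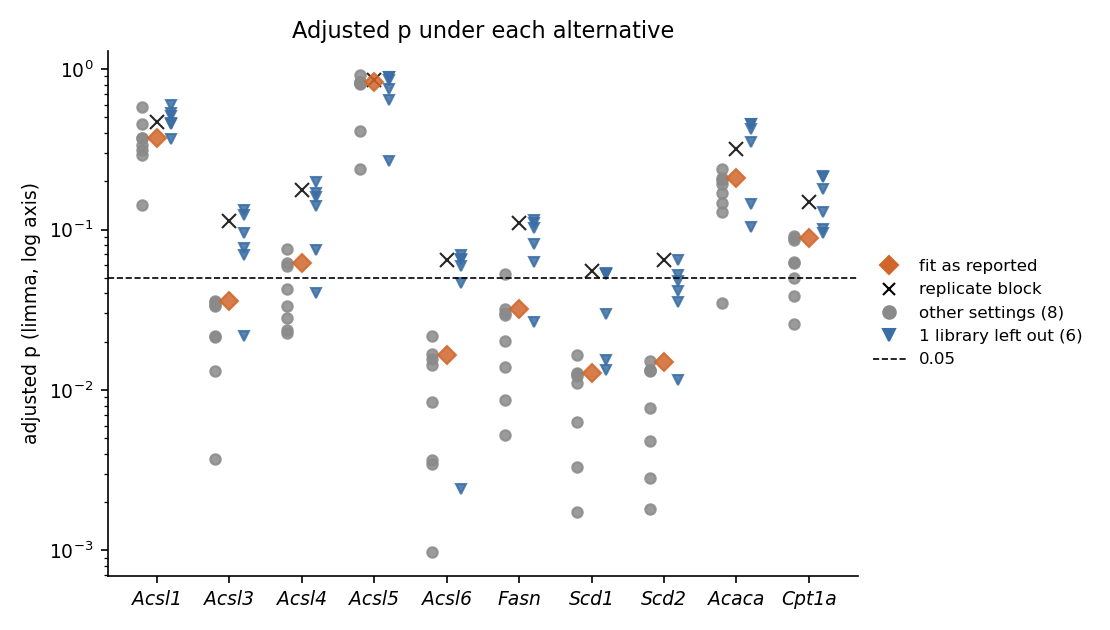
Limma adjusted p (log axis) of each gene in the fit as reported (orange diamonds), with a block by replicate number (black crosses), under 8 other settings (grey circles) and with 1 of the 6 libraries left out (blue triangles), with a dashed line at 0.05. The blue triangles of *Acsl3* and *Fasn* lie above the line except for the fit without dox-treated replicate 3, and *Acsl1* and *Acsl5* lie above it throughout.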

How the data were processed

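RNA from sorted MEPs (bone marrow cells negative for lineage markers, Sca1, CD34 and CD16/32 and positive for cKit) was sequenced on an Illumina GAIIx by the authors, in 3 dox-treated and 3 untreated replicates. Adapters were removed with Cutadapt, reads were mapped and quantified by RSEM against Ensembl transcripts (NCBIM37), and limma was used for normalization. The authors deposited log2 values of CPM with 0.5 reads added, 1 per gene and library, without pooling. Their filter on low genes, library-size method and use of strand are not given in the sources used here. Reads were recovered as whole numbers within 6.6e-09 reads. Printed CPM are 2 to the power of the deposited value.

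Groups were compared with limma 3.58.1 (R 4.3.3), fitting the deposited log2 values of 12088 genes that reached 1 CPM in 3 or more libraries. P-values were two-sided, Benjamini–Hochberg adjusted over all these genes, and called under 0.05. Fold changes of genes with few reads depend on the 0.5 reads added. Single ratios had an exact permutation test, whose smallest p is 0.1. Floors of 3 reads cover counting error only. The fit was tested on simulated data in which all libraries varied alike, whereas here dox-treated replicate 3 stood apart. Levels per kb used the longest transcript of the NCBIM37 annotation. Alternatives changed the reads added, filter, variance model, weights, scaling and block and left out each library. Tables and figures were made with Python, pandas, scipy and matplotlib.

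The members and lists were chosen with earlier results of these data known. Named are all 10 genes, of each pathway list every gene past the threshold or, if more than 4, the 4 with the smallest p (where none passed, up to 2), and of each cell type list the 3 with the highest mean CPM. A gene of the peroxisomal list that this rule would name is not reported here. *Hsd17b8* was not matched to an identifier. Embryo and cell line experiments were not analysed here.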

Additional observations from a re-analysis of the deposited data

How the results depend on the processing

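Of the 10 genes, 5 fell and 0 rose as reported. Higher calls numbered 1 with a mean of at least 5 CPM, voom precision weights or quantile normalization, and 2 with a mean-variance trend or array quality weights, and lower calls were between 4 and 6 in these fits. Leaving out 1 library gave 0 to 1 higher and 0 to 5 lower. Among the 131 other fatty acid genes, 10 higher and 4 lower became 34 and 28 with array quality weights, the lower count became 9 with a mean-variance trend and 7 with voom precision weights, and leaving out 1 library gave 2 to 25 higher and 1 to 14 lower. Over all genes, 555 higher and 384 lower became 909 and 747 with a mean-variance trend and 2515 and 2601 with array quality weights, and leaving out 1 library gave 92 to 1801 higher and 36 to 1687 lower, both largest without dox-treated replicate 3. *Acsl5* changed sign with array quality weights (-0.10) and without dox-treated replicate 3 (-0.13), and its log2 fold change ranged from -0.13 to 0.18 when 1 library was left out. Apart from fits with fewer samples or genes, the cause was not tested.

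The labels give both groups replicate numbers 1 to 3, but nothing says that a number was collected together, and same-numbered libraries did not deviate together (correlations of 0.02, -0.12 and -0.30). Under a block by replicate number, calls fell to 0 higher and 0 lower among the 10 genes, 2 and 0 among the 131 (*Pparg* and *Acot1*), and 53 and 29 over all genes. The adjusted p with the block was 0.0551 for *Scd1*, 0.0645 for *Scd2* and *Acsl6*, 0.109 for *Fasn* and 0.112 for *Acsl3*. The fewest reads of any of the 10 genes were the 18 of *Acsl6* in dox-treated replicate 2, while *Pparg* and *Acot4* held 0 or 1 read in untreated libraries.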
